A study of Mus musculus with 7 samples.

Results

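The 10 genes examined mark the choroid plexus and were measured in RNA-seq libraries of mouse hippocampus. They are Ttr, Folr1, Kl, Clic6, Kcne2, Sostdc1, Kcnj13, Aqp1, Otx2 and Prlr. They were chosen by name, as the rows of the count tables whose Ensembl identifiers carry these symbols, and not by their measured values. All 10 were found, 1 identifier each, among 55416 gene identifiers. As hippocampal neurons are not the main source of most of them, they were read as marks of adjacent ventricular tissue in each dissection.

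The choroid plexus is a sheet of secretory epithelium on a vascular stroma inside the brain ventricles. It makes cerebrospinal fluid by moving ions and water, secretes carrier proteins into that fluid, and takes up vitamins and hormones from the blood. The plexus of the lateral ventricle lies against the fimbria of the hippocampus. Some of the genes are also made by other brain cells, among them Kl in neurons and Otx2 in neurons of the thalamus and midbrain.

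The 7 libraries came from hippocampi of male CD1 mice, an outbred stock. Of these, 3 were from untreated mice (Control, replicates 1, 2 and 3), 2 from mice given the vehicle DMSO (replicates 2 and 3) and 2 from mice given ONX-0914 (replicates 1 and 2), an inhibitor of the immunoproteasome subunit β5i. ONX-0914 was injected intraperitoneally at 10 mg/kg, 2 times per week for 2 months, and DMSO followed the same schedule. Ages are described only as matched, and nothing in the labels states whether each library was 1 mouse, so p-values measure the spread between these libraries.

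Libraries held 2842675 to 3877006 counts on genes, except ONX-0914 replicate 2 with 13782270. The libraries of ONX-0914 differed from each other far more than other replicates did. Chi-square per degree of freedom was 76.9 between them, against 2.50 to 3.20 between replicates of the other groups, though this ratio also grows with depth. The hippocampal label was checked with markers of the dentate gyrus, CA1 and CA3, and all 15 marker genes had counts in every library. In ONX-0914 replicate 1 their summed levels were 0.227, 0.430 and 0.614 times the control mean, while markers of thalamus and midbrain stood at 11.4 times and markers of striatum at 5.20 times. In ONX-0914 replicate 2 blood markers stood at 24.6 times the control mean. Results for the choroid plexus genes are therefore also given without each ONX-0914 library where the call or direction changed, and the marker lists were refitted without each of them, as an alternative added after seeing the data.

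Levels are CPM, the counts of a gene scaled to 1 common library size, with each library's size adjusted by a TMM factor. The 10 genes together had 551, 213 and 171 counts in control replicates 1, 2 and 3, 456 and 162 in the DMSO pair, and 325 and 3085 for ONX-0914 replicates 1 and 2. Their summed level was 196 CPM (95% exact binomial interval 180 to 214, counting error only) in control replicate 1, 58.1 (50.5 to 66.4) in control replicate 2 and 47.1 (40.3 to 54.7) in control replicate 3. It was 122 (111 to 134) and 57.8 (49.3 to 67.5) in the DMSO libraries. ONX-0914 replicate 1 had 81.8 (73.1 to 91.2) and replicate 2 had 204 (197 to 211). The highest were 1 control library and 1 ONX-0914 library, with overlapping intervals, and the ranges of the 3 groups overlapped. The group means were 101 ± 83.2 CPM (SD, n = 3) for Control, 90.1 ± 45.6 (n = 2) for DMSO and 143 ± 86.3 (n = 2) for ONX-0914. In bulk tissue, fewer cells of a type and less RNA per cell cannot be told apart.

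Ttr made up 49.1% to 81.5% of this sum, so the sum followed Ttr. Without Ttr the remaining 9 genes summed to 36.4, 23.2 and 24.0 CPM in the control libraries, 31.1 and 25.7 with DMSO, and 31.2 and 46.9 with ONX-0914. The highest of the 7 libraries was then 2.02 times the lowest, compared with 4.33 times with Ttr included.

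**Figure D1:**
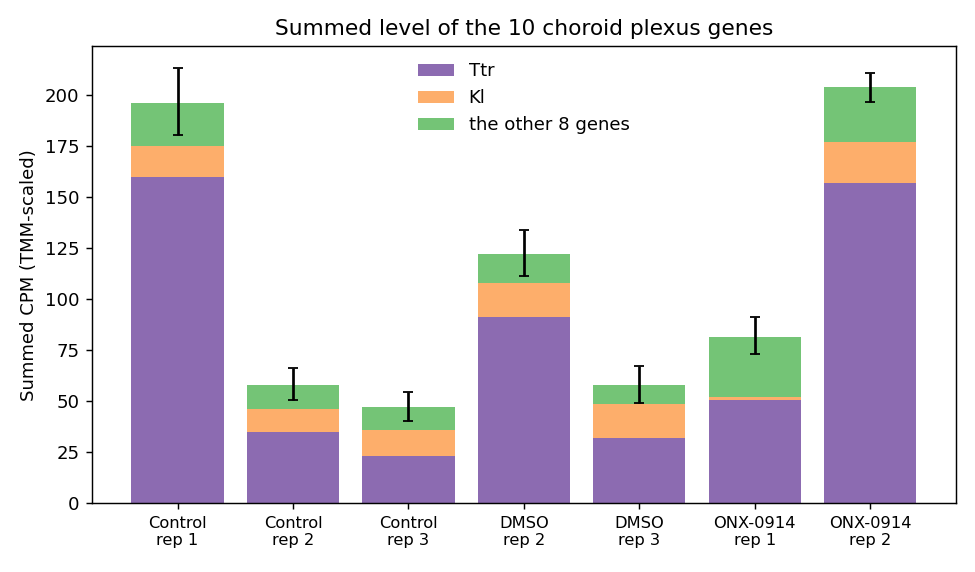
Summed CPM of the 10 choroid plexus genes in each library, stacked as Ttr, Kl and the other 8 genes, with bars starting at 0. Error bars are the 95% exact binomial interval of the sum; control replicate 1 (196 CPM) and ONX-0914 replicate 2 (204 CPM) stand above the other 5 libraries, and the Kl segment is thin in ONX-0914 replicate 1.

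Compared per kilobase of exon, Ttr was the most abundant of the 10 genes, with a mean of 66.1 CPM per kb over the 7 libraries. Sostdc1 (1.46 CPM per kb), Kl (1.45) and Clic6 (1.32) followed at nearly the same level, then Folr1 (0.657), Otx2 (0.615), Aqp1 (0.333), Kcne2 (0.303), Prlr (0.277) and Kcnj13 (0.142). In every library Ttr stood above all other 9 genes, whereas each later pair of neighbours overlapped in range over the libraries, so their order is not beyond their spread. The filter on low counts was passed by 6 genes, which were tested: Ttr, Folr1, Kl, Clic6, Sostdc1 and Prlr. Kcne2, Kcnj13, Aqp1 and Otx2 did not pass it, and their values are given as descriptions.

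The genes for secreted carriers and vitamin uptake are Ttr and Folr1. Ttr (ENSMUSG00000061808) encodes transthyretin, which carries thyroxine and the retinol-binding protein and is secreted into cerebrospinal fluid. It had 160, 34.9 and 23.1 CPM in control replicates 1, 2 and 3, and 91.2 and 32.1 CPM in the DMSO pair. ONX-0914 replicate 1 had 50.6 CPM and replicate 2 had 157 CPM. Control replicate 1 and ONX-0914 replicate 2 were the high libraries, and the groups overlapped. The highest control library was 6.92 times the lowest. None of the 2937 other tested genes with a mean level at or above that of Ttr had so wide a ratio among the controls: their median ratio was 1.14 and their highest 5.17. The log2 fold change was 0.54 (SE 0.823, FDR 0.745, edgeR's quasi-likelihood test) for ONX-0914 against Control, and its 95% interval ran from -1.35 to 2.43. Without ONX-0914 replicate 2 it was -0.47 (FDR 0.678), on the other side of 0, and without control replicate 1 it was 1.86.

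Folr1 (ENSMUSG00000001827) encodes the folate receptor alpha, through which the plexus passes folate into the cerebrospinal fluid. Its counts were low: 10, 3 and 1 in the control libraries, 11 and 4 with DMSO, and 0 and 23 with ONX-0914. On the CPM scale these were 3.57, 0.818 and 0.275 for Control, 2.95 and 1.43 for DMSO, and 0 and 1.52 for ONX-0914. Control replicate 1 and DMSO replicate 2 were high, as they were for Ttr, and the groups overlapped. The count of 0 in ONX-0914 replicate 1 allows up to 0.778 CPM, taken against all counts of that library. The log2 fold change for ONX-0914 against Control was -0.56 (SE 1.12, FDR 0.811, edgeR's quasi-likelihood test), and 0.08 without ONX-0914 replicate 1.

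**Figure D2:**
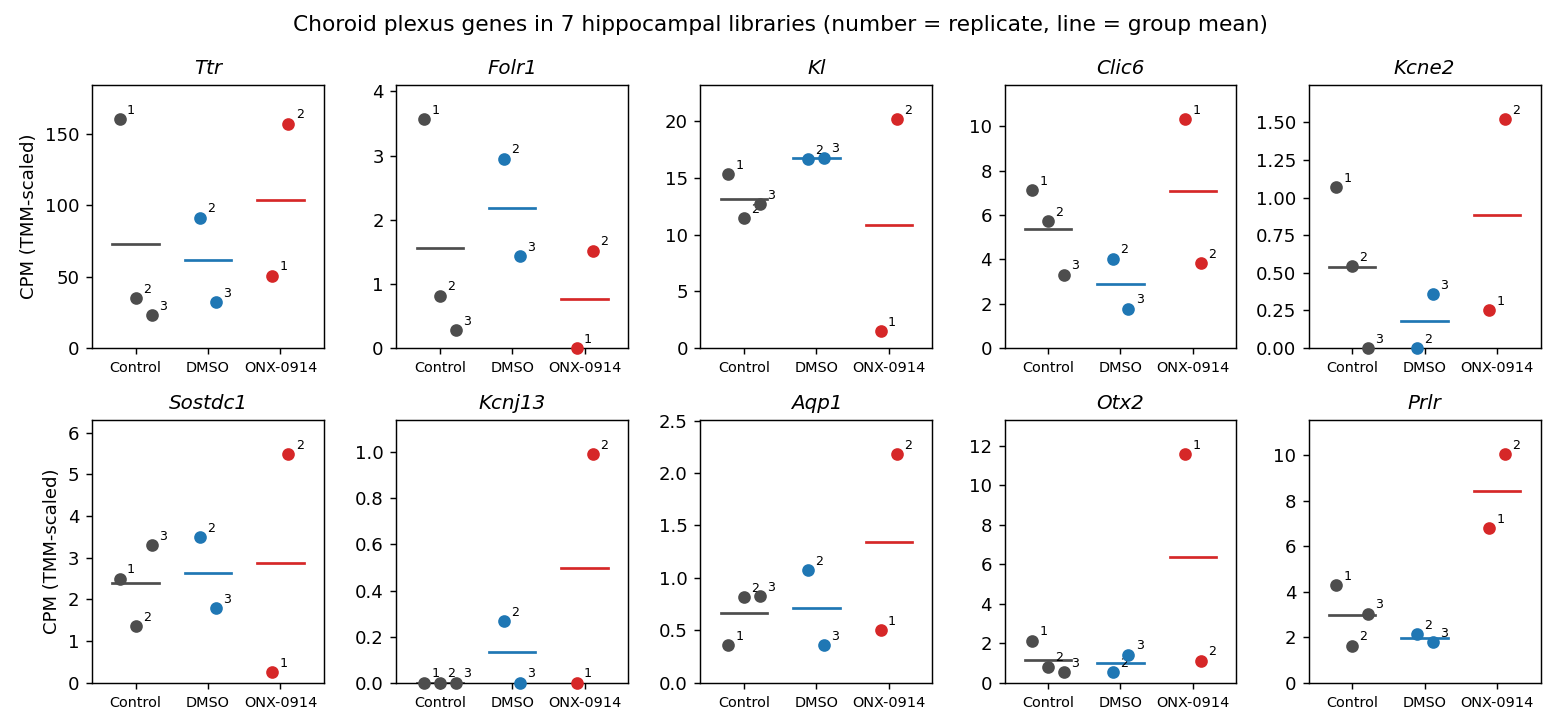
CPM (linear axis, a separate scale for each gene) of the 10 choroid plexus genes in the 7 libraries, 1 point per library labelled with its replicate number, with a line at the mean of each group. The Prlr panel is the one with both ONX-0914 points above every Control and DMSO point; in no other panel do both ONX-0914 points lie above every Control point.

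The water and ion transport genes are Aqp1, Kcne2, Kcnj13 and Clic6. Aqp1 (ENSMUSG00000004655), the water channel aquaporin-1 of the apical membrane, had 1, 3 and 3 counts in the control libraries, 4 and 1 with DMSO, and 2 and 33 with ONX-0914. Its level was 0.357 to 0.826 CPM in Control, 0.357 to 1.07 in DMSO, and 0.503 and 2.18 in ONX-0914 replicates 1 and 2. ONX-0914 replicate 2 was the highest library, while ONX-0914 replicate 1 lay among the controls.

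Kcne2 (ENSMUSG00000039672), a regulatory subunit of voltage-gated potassium channels, had 3, 2 and 0 counts in Control, 0 and 1 in DMSO, and 1 and 23 in ONX-0914. In CPM its highest values were 1.52 in ONX-0914 replicate 2 and 1.07 in control replicate 1. Clic6 lies on the same chromosome as Kcne2 with 11 annotated genes between them, 5 of them protein-coding, and the pair had different highest libraries.

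Kcnj13 (ENSMUSG00000079436) encodes the inward rectifier potassium channel Kir7.1. It had counts in 2 of 7 libraries, 1 in DMSO replicate 2 and 15 in ONX-0914 replicate 2, and 0 in all 3 control libraries. The 15 counts are 1.09 CPM against all counts of that library (95% exact interval 0.609 to 1.80), and a count of 0 in a single control library allows up to 0.794 to 1.03 on the same scale (floor of 3 counts). Over the 3 control libraries together, 0 of 10444294 counts allow up to 0.287, below that interval, so the level in ONX-0914 replicate 2 stood above the pooled controls by more than counting error. ONX-0914 replicate 1 also had 0 counts, and without the filter the comparison of ONX-0914 with Control gave an unadjusted p of 0.0314 and an FDR of 0.285 in edgeR's quasi-likelihood test. Exons of Kcnj13 overlap those of Gigyf2 on the opposite strand, and whether counting used strand is not given in the sources used here. The counts of Gigyf2 were 366 to 600 in 6 libraries and 1029 in ONX-0914 replicate 2, the deepest library. In CPM Gigyf2 was lowest in ONX-0914 replicate 2, at 68.0 against 124 to 164 in the other 6 libraries. Without strand its reads and those of Kcnj13 cannot be told apart, and its part in the Kcnj13 counts was not tested.

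The promoter of Kcnj13 is shown because it holds more of the searched motifs than any other promoter window of these genes. It is the 250 bases before the RefSeq start, GRCm38.p6 chr1:87394730-87394979, minus strand, 5′ to 3′, with motif matches in capitals. The capitals are, in order, the CCAAT box on the other strand (96 bases before the start), the CCAAT box (71 bases before) and TATAAA (29 bases before).
Kcnj13: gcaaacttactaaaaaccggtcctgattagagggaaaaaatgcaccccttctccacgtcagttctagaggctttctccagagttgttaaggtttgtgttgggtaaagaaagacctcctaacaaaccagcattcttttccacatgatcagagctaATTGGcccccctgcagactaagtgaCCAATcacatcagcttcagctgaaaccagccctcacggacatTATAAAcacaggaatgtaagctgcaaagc
On both strands, TATAAA was present in 12.4% of all 32851 RefSeq promoter windows of this length and CCAAT in 33.8%. A match describes the letters in the window only.

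Clic6 (ENSMUSG00000022949), a member of the chloride intracellular channel family, was highest in ONX-0914 replicate 1, unlike the other channels. It had 7.13, 5.73 and 3.30 CPM in the control libraries, 4.02 and 1.78 with DMSO, and 10.3 (replicate 1) and 3.83 (replicate 2) with ONX-0914. Only ONX-0914 replicate 1 exceeded every control library, and the groups overlapped. The log2 fold change was 0.34 (SE 0.554, FDR 0.765, edgeR's quasi-likelihood test) against Control and 1.17 (SE 0.653, FDR 0.426) against DMSO. Against Control it was -0.48 without ONX-0914 replicate 1 and against DMSO it was 1.75 (FDR 0.0223) without ONX-0914 replicate 2.

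The receptors and secreted regulators are Kl, Prlr and Sostdc1. Kl (ENSMUSG00000058488) encodes klotho, the co-receptor for fibroblast growth factor 23, and varied least of these genes among the untreated mice. It had 15.3, 11.5 and 12.7 CPM in the control libraries, 16.6 and 16.8 with DMSO, and 1.51 (replicate 1) and 20.2 (replicate 2) with ONX-0914. These came from 43, 42, 46, 62, 47, 6 and 305 counts. The highest control was 1.34 times the lowest, both DMSO libraries lay above every control, and the ONX-0914 libraries lay at the opposite ends of all 7, 13.3-fold apart.

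Averaged over these opposite libraries, the log2 fold change of Kl was -0.16 (SE 0.698, FDR 0.920, edgeR's quasi-likelihood test) for ONX-0914 against Control, with a 95% interval of -1.76 to 1.44. Without ONX-0914 replicate 1 it was 0.62 (FDR 0.0255), and without replicate 2 it was -3.08 (FDR 3.1e-05), both past the threshold in opposite directions. Each of these fits takes the lone ONX-0914 library to vary like the libraries of the other groups, and called 6325 and 2500 genes in all. The dentate gyrus list, at 0.227 times the control mean, was also low in replicate 1, and its part in the Kl value was not tested. Scaling by total counts alone gave a log2 fold change of 0.01 (FDR 0.992).

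The promoter of Kl is shown because Kl was called in opposite directions without each ONX-0914 library. It is GRCm38.p6 chr5:150952357-150952606, plus strand, 5′ to 3′, and none of the searched motifs was found in it, so it has no capitals.
Kl: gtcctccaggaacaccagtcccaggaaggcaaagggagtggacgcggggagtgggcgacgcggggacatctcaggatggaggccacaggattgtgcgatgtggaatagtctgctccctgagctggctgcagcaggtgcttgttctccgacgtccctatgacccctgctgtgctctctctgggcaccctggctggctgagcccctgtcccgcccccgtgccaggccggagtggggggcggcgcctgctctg

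Prlr (ENSMUSG00000005268) encodes the receptor for the pituitary hormone prolactin. It had 4.28, 1.64 and 3.03 CPM in the control libraries, 2.15 and 1.78 with DMSO, and 6.80 and 10.0 with ONX-0914, from 12, 6, 11, 8, 5, 27 and 152 counts. Both ONX-0914 libraries lay above all 5 other libraries, and the groups did not overlap. The group means were 2.98 ± 1.32 CPM (SD, n = 3) in Control, 1.97 ± 0.256 (n = 2) in DMSO and 8.42 ± 2.30 (n = 2) in ONX-0914.

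The log2 fold change of Prlr was 1.54 (SE 0.438, 95% interval 0.53 to 2.54) for ONX-0914 against Control, with an unadjusted p of 0.00763 and an FDR of 0.158 in edgeR's quasi-likelihood test. Against DMSO it was 2.10 (SE 0.526, 95% interval 0.89 to 3.30), with an unadjusted p of 0.00382 and an FDR of 0.185 in the same edgeR test. Neither passed the threshold over all genes tested. Without the filter on low counts the FDR was 0.0368 and 0.0139, and without ONX-0914 replicate 1, a fit that called 6325 and 5751 genes in all, it was 0.00104 and 0.00061. It missed the threshold without ONX-0914 replicate 2 (0.143 and 0.0615), without any 1 control library (0.374 to 0.440, and 0.318 to 0.372), with the replicate block (0.345 and 0.398) and with DESeq2 (0.228 and 0.163). The endothelium list stood at 1.69 and 1.93 times its control mean in ONX-0914 replicates 1 and 2 and the blood list at 2.83 and 24.6 times, so both were higher in the same 2 libraries, and their part in the Prlr value was not tested. An annotated gene model on the same strand, Gm21973, overlaps exons of Prlr and had no count in any library.

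Sostdc1 (ENSMUSG00000036169), a secreted antagonist of BMP and Wnt signals, had 2.50, 1.36 and 3.30 CPM in Control, 3.49 and 1.78 with DMSO, and 0.252 (replicate 1) and 5.48 (replicate 2) with ONX-0914. The ONX-0914 libraries were the lowest and the highest of the 7, 21.8-fold apart, though the lowest value was 1 count. The log2 fold change was 0.45 (SE 0.861, FDR 0.805, edgeR's quasi-likelihood test) against Control, and -3.07 (FDR 0.0845) without ONX-0914 replicate 2.

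The transcription factor of the set is Otx2 (ENSMUSG00000021848), a homeobox gene needed to form and maintain the choroid plexus. It had 6, 3 and 2 counts in the control libraries, 2 and 4 with DMSO, and 46 (replicate 1) and 17 (replicate 2) with ONX-0914. In CPM these were 2.14, 0.818 and 0.551 for Control, 0.537 and 1.43 for DMSO, and 11.6 and 1.12 for ONX-0914. ONX-0914 replicate 1 alone was high, at 9.90 times the control mean of 1.17 ± 0.850 CPM (SD, n = 3), while replicate 2 lay among the controls. The thalamus and midbrain list was 11.4 times its control mean in the same library and 1.21 times in replicate 2, and its part in the Otx2 value was not tested. Otx2 did not pass the filter. With no filter its log2 fold change was 2.39 (FDR 0.0155, edgeR's quasi-likelihood test) against Control and 2.65 (FDR 0.0355) against DMSO, and DESeq2 gave FDR 0.247 and 0.351.

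Otx2 shares exon sequence with Gm49154 on its own strand, which had no count, and with Otx2os1 on the opposite strand, which had 0 to 2 counts per library. RefSeq gives it 4 starts. The window before the start farthest upstream, GRCm38.p6 chr14:48667645-48667894, minus strand, is printed 5′ to 3′ because Otx2 stood at 9.90 times its control mean in 1 library, with a TATAAA match 192 bases before the start in capitals.
Otx2: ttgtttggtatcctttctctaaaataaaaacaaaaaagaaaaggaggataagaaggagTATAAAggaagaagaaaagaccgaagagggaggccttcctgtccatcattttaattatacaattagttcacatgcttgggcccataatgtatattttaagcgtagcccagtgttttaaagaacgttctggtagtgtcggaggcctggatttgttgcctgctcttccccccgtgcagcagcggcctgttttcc
The OTX factor motif TAATCC, searched on both strands, was present in 1 of the 12 promoter windows of these genes, before another start of Otx2, and in 6.25% of all windows. TATAAA was present in 2 of 12 and CCAAT in 3 of 12. RefSeq windows were matched for 6 of the 10 genes, Kl, Kcne2, Kcnj13, Aqp1, Otx2 and Prlr, and not for Ttr, Folr1, Clic6 and Sostdc1.

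The 10 genes did not share 1 pattern over the libraries. ONX-0914 replicate 2 was the highest library for 6 of them (Kl, Kcne2, Sostdc1, Kcnj13, Aqp1 and Prlr), control replicate 1 for Ttr and Folr1, and ONX-0914 replicate 1 for Clic6 and Otx2. In ONX-0914 replicate 1, Clic6, Otx2 and Prlr exceeded every control and Folr1, Kl and Sostdc1 lay below every control. The shares of all genes that were highest, or beyond every control, in a single library are not given beside these counts. Ratios of the choroid plexus genes to Ttr varied. Per 100 counts of Ttr, Kl had between 2.99 (ONX-0914 replicate 1) and 54.8 (control replicate 3), an 18.3-fold range. Otx2 had between 0.588 (DMSO replicate 2) and 22.9 (ONX-0914 replicate 1), a 38.9-fold range on few counts.

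**Figure D3:**
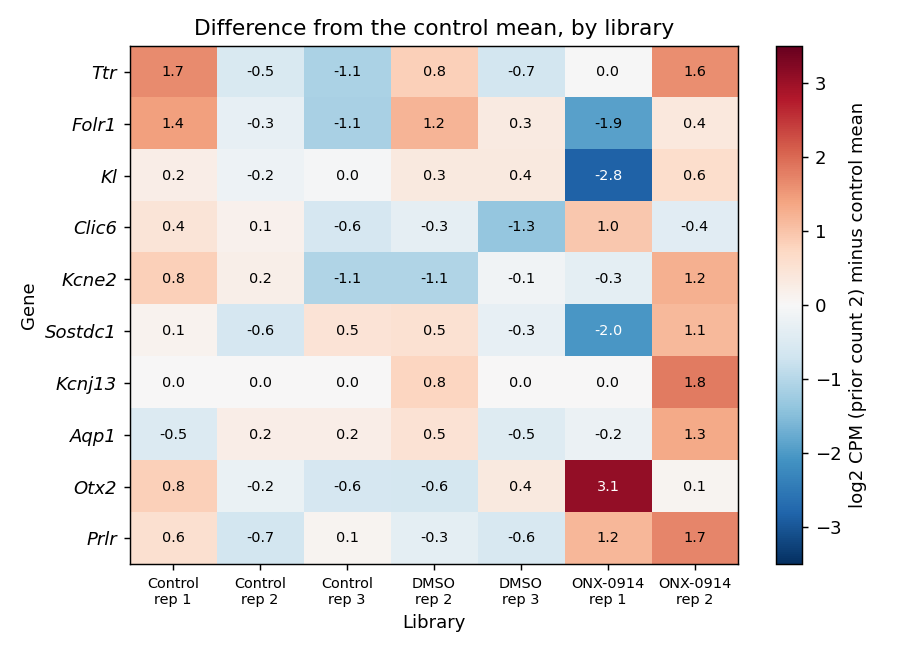
Log2 CPM (prior count 2) of each of the 10 choroid plexus genes in each library minus its mean over the 3 control libraries, with the value printed in each cell; red is higher, blue is lower. In the column of ONX-0914 replicate 1 Kl (-2.8), Sostdc1 (-2.0) and Folr1 (-1.9) are blue while Otx2 (3.1), Prlr (1.2) and Clic6 (1.0) are red.

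The genes whose centred log2 CPM lay closest to the mean profile of the 6 tested choroid plexus genes over the 7 libraries were Itga4 (root-mean-square distance 0.093 log2 units), Galm (0.172), Mir703 (0.193), Hexdc, Zfp954, Noct, Gm9954, Met, Ntn3 and Dubr (0.238). Itga4, the integrin alpha 4 subunit, had 13.5, 6.82 and 7.44 CPM in Control, 10.5 and 6.43 in DMSO, and 5.03 and 15.6 in ONX-0914. The choroid plexus genes themselves lay at distances of 0.596 (Ttr) to 0.937 (Clic6), ranks 4235 to 11600 of 13152, so none of them lay close to their mean profile.

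For ONX-0914 against Control, 18 of 13152 tested genes passed an FDR of 0.05 (0.137%), and 0 of the 6 tested choroid plexus genes did. Of the 6, only Prlr had an unadjusted p under 0.05 in edgeR's quasi-likelihood test (1 gene), against 17.8% of all genes tested, and DESeq2 called 0 of the 6 genes it gave an adjusted p, leaving 4 without one. Prlr was the 1 gene of the 6 whose libraries did not overlap in the higher direction, against 16.9% of all genes tested, and 0 did so in the lower direction, against 16.3%. A positive log2 fold change was found for 4 of the 6 and a negative one for 2, with a median of 0.39 against 0.05 over all genes tested. That median was -0.47 without ONX-0914 replicate 2. The count of 18 genes was 0 without any 1 control library, 3 without either DMSO library, 6325 without ONX-0914 replicate 1 and 2500 without replicate 2, and under DESeq2 it was 362.

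DMSO against Control addressed the vehicle. Of 13152 genes 2 were called (0.0152%), and 0 of the 6 choroid plexus genes. None of the 6 (0 genes) had an unadjusted p under 0.05 in edgeR's quasi-likelihood test, against 2.69% of all genes tested, and DESeq2 called 0 of the 10. Kl was the 1 gene whose DMSO libraries both lay above all controls, with a log2 fold change of 0.35 (95% interval -1.30 to 2.00), against 15.7% of all genes tested with groups that did not overlap in that direction and 15% in the lower direction. Log2 fold changes ran from -0.84 (Clic6) to 0.61 (Folr1), with a median of -0.02 against 0.00 over all genes tested. The median was 0.20 without control replicate 1, 0.34 without DMSO replicate 3 and 0.03 without ONX-0914 replicate 1, and the count of 2 genes was 0 without any 1 Control or DMSO library and 117 or 135 without an ONX-0914 library.

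ONX-0914 against DMSO, which shares the ONX-0914 libraries with the first comparison, called 6 genes (0.0456%) and 0 of the 6 choroid plexus genes. Prlr again was the 1 gene with an unadjusted p under 0.05 in edgeR's quasi-likelihood test, against 14.2% of all genes tested, and DESeq2 called 0 of 6, leaving 4 without an adjusted p. It was also the 1 gene with both ONX-0914 libraries above both DMSO libraries, against 20.8% of all genes tested, and none lay below, against 19.7%. Log2 fold changes ran from -1.17 (Folr1) to 2.10 (Prlr), with a median of 0.51 against 0.05 over all genes tested. The median was 1.69 without DMSO replicate 2 and -0.33 without ONX-0914 replicate 2, and the count of 6 genes was 0 without any 1 Control or DMSO library, 5751 without ONX-0914 replicate 1 and 2225 without replicate 2.

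**Figure D4:**
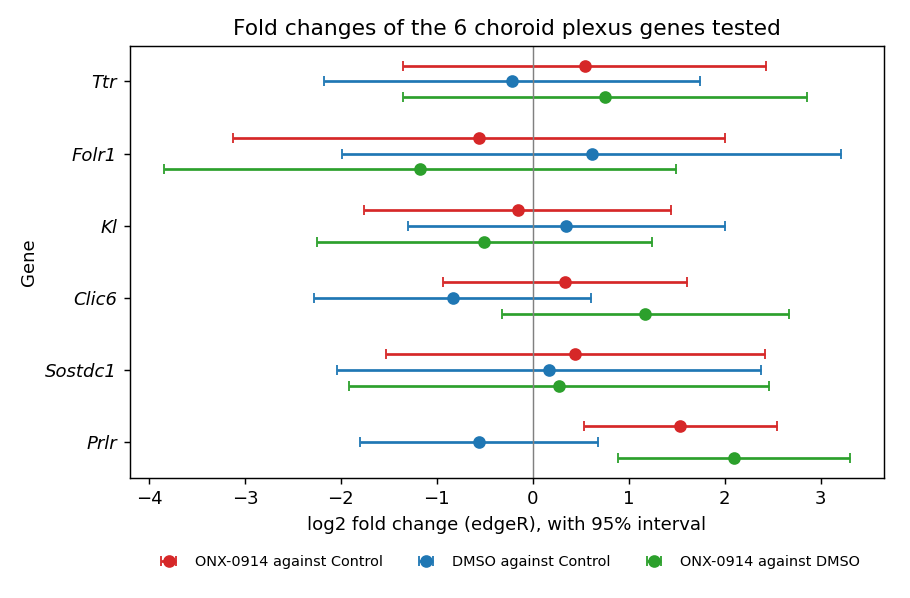
Log2 fold change (edgeR) of the 6 tested choroid plexus genes in the 3 comparisons, with 95% intervals as bars and a line at 0. The intervals of Prlr for ONX-0914 against Control (0.53 to 2.54) and against DMSO (0.89 to 3.30) lie above 0, and all other intervals cross it.

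Other genes of the plexus were read from a second list of 29 matched genes, of which 14 were tested and 0 called in any comparison (5 at an unadjusted p under 0.05 for ONX-0914 against Control, edgeR's quasi-likelihood test; 0 by DESeq2). Of all genes tested, 17.8% had an unadjusted p under 0.05 in that comparison by the same edgeR test. For ONX-0914 against Control, 7 had positive and 7 negative log2 fold changes among the 14, with a median of 0.08. Both ONX-0914 libraries lay above every control for 4 of the 14 and below for 3, against 16.9% and 16.3% of all genes tested. Atp1b1, a sodium pump subunit that neurons also make, had 2125 to 2289 CPM in the control libraries and 1620 and 1436 in ONX-0914. Enpp2, the enzyme autotaxin, had 175 to 253 CPM in Control and 281 and 285 in ONX-0914, and Slc12a2, a sodium-potassium-chloride cotransporter, had 87.6 to 103 CPM in Control and 142 and 78.2 in ONX-0914. The list summed to 2479 to 2745 CPM in Control and 2160 and 1923 in ONX-0914, and most of this sum was Atp1b1. Without Atp1b1 the other 28 genes summed to 455, 488 and 353 CPM in the control libraries and 540 and 487 in ONX-0914 replicates 1 and 2. Most of this sum was in turn Enpp2 and Slc12a2, at 243 and 94.1 CPM in control replicate 1 and 175 and 87.6 in control replicate 3. Which cells made them was not tested. Of the 26 of these 28 genes with a count in any control library, 12 were highest among the controls in replicate 1, 13 in replicate 2 and 1 in replicate 3. Genes with fewer counts, such as the tight junction gene Cldn2 (1, 5 and 1 counts in Control, 0 and 18 in ONX-0914) and Tmem72 (0, 2 and 1 in Control, 3 and 57 in ONX-0914), were at or near the floor in most libraries. In the deeper ONX-0914 replicate 2, Cldn2 had 1.19 CPM, within its control range of 0.275 to 1.36. Tmem72 had 3.77 CPM there, against 0 to 0.545 in Control.

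The wall of the ventricle was read from ependyma genes, which mark its ciliated cells. For all 7 tested, each ONX-0914 library lay below every control, with a median log2 fold change of -1.17. By edgeR's quasi-likelihood test 0 were called (3 at an unadjusted p under 0.05, smallest FDR 0.147). DESeq2 called 1, Ak7, of the 362 genes it called in all. Over all genes tested 16.3% did not overlap in the lower direction and 17.8% had an unadjusted p under 0.05. The ependymal median was -0.94 without ONX-0914 replicate 1, with 3 genes called lower, and -0.60 without replicate 2, with 0 called. Rsph1, a radial spoke protein, had 37.1, 23.4 and 30.3 CPM in Control and 19.6 and 3.83 in ONX-0914. Foxj1, the regulator of motile cilia, had 8.997 to 9.91 CPM in Control and 8.31 and 7.20 in ONX-0914, and Ak7 had 8.26 to 14.3 in Control and 4.78 and 2.18 in ONX-0914. The summed ependymal level was 69.1 to 91.3 CPM in Control, 61.2 and 88.2 with DMSO, and 50.6 (replicate 1) and 28.9 (replicate 2) with ONX-0914, so it was lowest in the library where the choroid plexus sum was highest.

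Genes of the leptomeninges and plexus stroma summed to 39.9 to 60.5 CPM in Control, 46.3 in ONX-0914 replicate 1 and 90.9 in replicate 2, where 9 of the 14 genes exceeded every control. The share of all genes that did so in that library is not given. Igfbp6 had 12.5 to 22.0 CPM in Control and 8.31 and 41.6 in ONX-0914, Col1a2 had 3.21 to 7.36 in Control and 5.54 and 6.87 in ONX-0914, and Aldh1a2 had 3.86 to 10.9 in Control and 4.78 and 4.30 in ONX-0914. Of the 9 tested genes 5 had positive log2 fold changes against Control and 0 were called (0 at an unadjusted p under 0.05 in edgeR's quasi-likelihood test, and 0 by DESeq2). All 8 endothelial genes had positive values, 7 without overlap, and 0 were called (7 at an unadjusted p under 0.05 in the same edgeR test). DESeq2 called 1, Ly6c1, of the 362 genes it called in all. Over all genes tested 16.9% did not overlap in the higher direction and 17.8% had an unadjusted p under 0.05. Without ONX-0914 replicate 1 the endothelial median was 1.20, and without replicate 2 it was 0.72. Flt1 had 63.5 to 77.2 CPM in Control and 125 and 101 in ONX-0914, Cldn5 had 18.0 to 26.7 and then 44.8 and 45.1, and Pecam1 had 18.7 to 24.0 and then 33.7 and 30.3.

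All 4 tested blood genes had both ONX-0914 libraries above every control. By edgeR's quasi-likelihood test 0 were called, although all 4 had an unadjusted p under 0.05 (17.8% of all genes tested). DESeq2 called 4, of the 362 genes it called in all. The blood median was 4.65 when ONX-0914 replicate 1 was left out and 1.52 when replicate 2 was. Hbb-bs had 9.27 to 17.7 CPM in Control, 25.9 in ONX-0914 replicate 1 and 388 in replicate 2. Hba-a1 had 13.2 to 18.0, 49.8 and 332, and Hbb-bt had 1.36 to 2.48, 12.3 and 86.0. In ONX-0914 replicate 2, where the blood list was highest, 6 of the 10 choroid plexus genes exceeded every control, and the part of blood in their values was not tested. The share of all genes that exceeded every control in that single library is not given, so the 6 cannot be set against it.

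**Figure D5:**
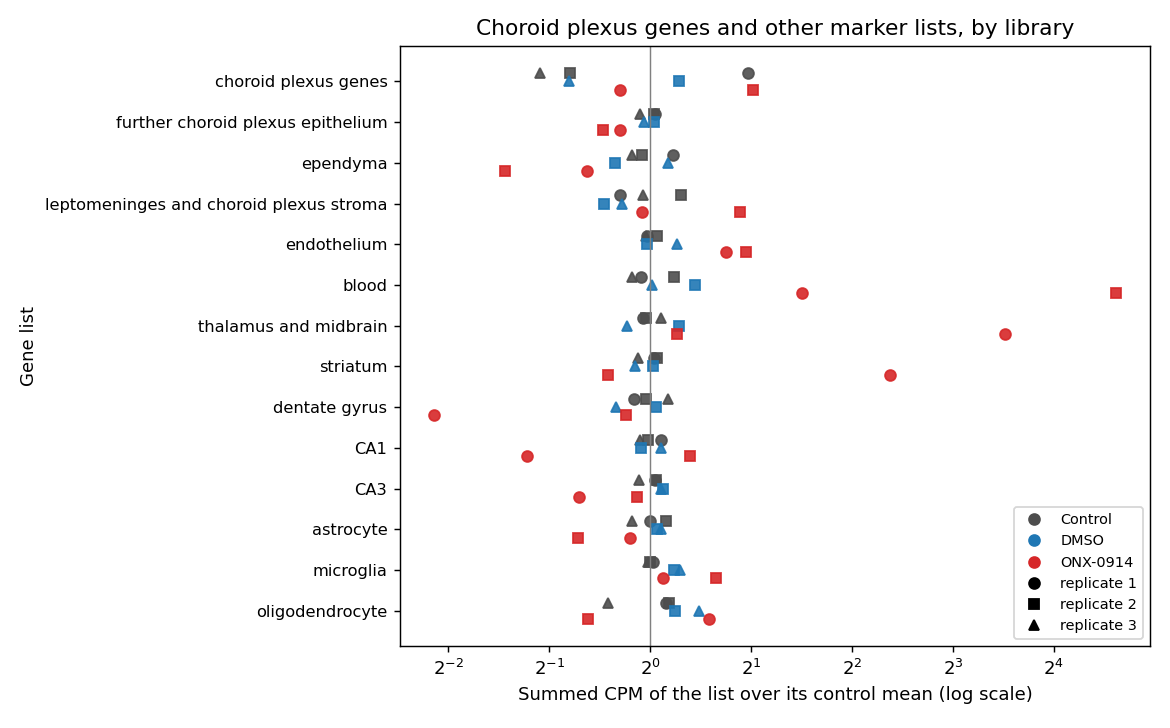
Summed CPM of each marker list over its mean in the 3 control libraries, on a log axis with base 2; colour gives the group and marker shape the replicate. ONX-0914 replicate 1 stands apart at thalamus and midbrain (11.4), striatum (5.20) and dentate gyrus (0.227), ONX-0914 replicate 2 at blood (24.6) and ependyma (0.370), while the control libraries differ most from each other in the choroid plexus genes (0.468 to 1.95).

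Markers of neighbouring brain regions separated ONX-0914 replicate 1 from the other libraries. The share of all genes beyond every control in that library is not given beside the counts below. All 12 thalamus and midbrain genes exceeded every control there, among them Prkcd (36.0 to 40.1 CPM in Control, 315 in that library), Slc17a6 (20.2 to 29.5, then 177) and Plekhg1 (10.3 to 13.2, then 80.5). All 12 striatal genes did too, among them Ppp1r1b (125 to 151 CPM in Control, 740 in that library) and Pde10a (71.3 to 95.2, then 207). All 5 dentate gyrus genes and all 5 CA1 genes lay below every control there, among them Prox1 (95.4 to 107 CPM in Control, 37.0), Dsp (92.0 to 138, 12.6), C1ql2 (44.9 to 55.9, 17.4), Fibcd1 (122 to 154, 30.2), Wfs1 (98.0 to 127, 90.4) and Mpped1 (110 to 124, 47.3). Of the 5 CA3 genes 4 were lower as well, with Grik4 at 55.4 to 66.3 CPM in Control and 18.4 in that library, Bok at 44.3 to 46.7 and 30.5, and Nectin3 at 40.8 to 51.8 and 25.2. ONX-0914 replicate 2 did not share this pattern: Prkcd had 25.1 CPM and Ppp1r1b 52.9 CPM there, both below every control. Without replicate 1 the thalamus and midbrain median against Control was 0.75, compared with 2.17 in the fit of all libraries, and the striatal median was -0.05, compared with 1.83. Without replicate 2 the medians were 4.57 and 2.69, over 12 tested genes of each list. The fit of all libraries tested 6 and 8. With 1 library left in the ONX-0914 group, the filter also admitted genes high in that library alone. The dentate gyrus median was -0.19 without replicate 1 and -2.66 without replicate 2, and the CA1 median was 0.70 and -1.72. The share of these regions in the values of Clic6, Otx2, Kl and Sostdc1 in that library was not tested.

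Glial lists lay between 0.608 and 1.57 times their control means in the ONX-0914 libraries. In ONX-0914 replicates 1 and 2 the astrocyte list stood at 0.874 and 0.608 times its control mean (Gfap 803 and 449 CPM against 753 to 1344 in Control, Slc1a3 519 and 560 against 630 to 667, Gja1 379 and 171 against 318 to 368). The microglia list stood at 1.09 and 1.57 times (Cx3cr1 98.4 and 72.7 CPM against 84.0 to 88.1, Csf1r 50.1 and 117 against 46.7 to 53.1, Tmem119 48.3 and 37.2 against 45.7 to 48.0). The oligodendrocyte list stood at 1.498 and 0.653 times (Mbp 4062 and 2237 CPM against 2192 to 3112, Mobp 2893 and 742 against 1263 to 2235). For ONX-0914 against Control edgeR's quasi-likelihood test called 0 genes of these glial lists or of the region lists. At an unadjusted p under 0.05 in that test, against 17.8% of all genes tested, were 6 of 6 thalamus and midbrain genes, 6 of 8 striatal, 2 of 5 dentate gyrus, 1 of 5 CA1, 2 of 5 CA3, 1 of 5 astrocyte, 2 of 5 microglia and 0 of 5 oligodendrocyte genes. Of the region lists, DESeq2 called 4 thalamus and midbrain, 4 striatal, 0 dentate gyrus, 1 CA1 and 2 CA3 genes, of 362 in all.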

How the data were processed

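RNA-seq counts per gene of the 7 libraries were used as deposited. Per the labels and methods, the authors made directional libraries sequenced as single-end reads, and the submitters' processing notes name Trimmomatic 0.39, STAR 2.7.3a, featureCounts 2.00 and the GRCm39 build. The strand setting and annotation release are not given in the sources used here. The files also hold summary lines, which were left out: 89.6% to 91.4% of those reads were on genes.

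Symbols were taken from GENCODE M21 (52083 of 55416 identifiers matched), exon lengths from the same annotation, and promoters from RefSeq on GRCm38.p6. As that build is not the one of the files, no coordinates of the counted genes are given. The counts were fitted with edgeR 4.0.16 in R 4.3.3, using filterByExpr (13152 genes kept), TMM factors of 0.965 to 1.10, glmQLFit with 1 mean per group over all 7 libraries, two-sided glmQLFTest and Benjamini-Hochberg adjustment (FDR) at 0.05. The biological coefficient of variation was 0.249. CPM used TMM-scaled sizes of the kept genes. The log2 CPM prior count was 2. The binomial intervals and the 3-count floor cover counting error only. The intervals of log2 fold changes come from the quasi-likelihood fit and include the spread between libraries. The test was checked on counts simulated with the same dispersion in every group. That check does not cover the wider spread between the ONX-0914 libraries.

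The choroid plexus genes and marker lists were chosen with earlier results of these data known. Named were all 10 genes, the 3 most abundant of each further list (some are not reported here) and the 10 genes nearest the mean profile; Cldn2 and Tmem72 were chosen once their values were known. Alternatives were RLE factors, total counts, no filter, DESeq2 1.42.0, only the groups compared, a replicate block and leaving out each library. After seeing the data, and because an earlier analysis of these libraries had called another number of genes, 3 further choices were tried alone and together: a common dispersion, TMM before the filter, and library sizes over all genes. The control spread of Ttr was set beside genes of at least its level with the values known; genes within 2-fold of its level had been looked at first. Refits of the marker lists without each ONX-0914 library were also added.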

Additional observations from a re-analysis of the deposited data

How the results depend on the processing

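Of 355 refitted log2 fold changes of single choroid plexus genes, 329 kept their direction and side of the threshold. Another 19 changed direction, whether or not they passed the threshold, and 7 kept direction but passed it only under the alternative. The 355 include the settings added after seeing the data. RLE factors changed no direction or call and moved no count by over 1.5 times, and neither did a common dispersion, TMM before the filter and library sizes over all genes, alone or together, which called 14 to 18, 2 and 6 genes in the 3 comparisons. With total counts the log2 fold change of Kl for ONX-0914 against Control was 0.014, the ONX-0914 against DMSO comparison called 3 genes, and the sum in ONX-0914 replicate 2 was 225 CPM. Without the filter on low counts 1118, 31 and 772 genes were called for ONX-0914 against Control, DMSO against Control and ONX-0914 against DMSO, and 2 choroid plexus genes, Otx2 and Prlr, in the first and the last. DESeq2 called 362, 5 and 229 genes, and a fit of only the groups compared called 3, 137 and 0, with a DMSO median of 0.023 over the choroid plexus genes. Summed without Ttr, the libraries stood at 36.4, 23.2, 24.0, 31.1, 25.7, 31.2 and 46.9 CPM. By Pearson correlation 6 of the 10 nearest genes were shared. The cause of these changes was not tested.

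Deviations of same-numbered libraries from their group means had correlations of -0.096 to 0.064. With 2 libraries in a treated group these deviations mirror each other, so this check cannot show whether the numbers pair libraries. With the replicate block 0, 0 and 0 genes were called in the 3 comparisons (1711, 256 and 1547 at an unadjusted p under 0.05, edgeR's quasi-likelihood test), the median for ONX-0914 against Control was -0.0083, and Clic6 was -0.092. For DMSO against Control under the block Ttr was 0.29, Kl -0.027 and Sostdc1 -0.34.

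For ONX-0914 against Control the medians of 5 marker lists changed sign when 1 ONX-0914 library was left out. Without replicate 1 and without replicate 2, in that order, they were 0.51 and -0.44 for further choroid plexus genes (0.08 with all libraries), -0.054 and 2.69 for striatum (1.83), 0.70 and -1.72 for CA1 (0.25), -0.50 and 0.15 for astrocytes (-0.26), and -0.49 and 0.60 for oligodendrocytes (0.16). The medians of the other 8 lists kept their sign. Leaving out 1 library at a time gave 0 to 6325 called genes for ONX-0914 against Control and 0 to 2 choroid plexus genes (Kl and Prlr without ONX-0914 replicate 1, Kl and Otx2 without replicate 2), 0 to 135 genes and 0 choroid plexus genes for DMSO against Control, and 0 to 5751 genes and 0 to 3 choroid plexus genes for ONX-0914 against DMSO (Prlr without replicate 1, and Kl, Clic6 and Otx2 without replicate 2). For ONX-0914 against Control the median ranged from -0.47 to 0.89, Ttr from -0.47 to 1.86, Folr1 from -5.33 (against 0 counts, so set by the prior count) to 0.085, Kl from -3.08 to 0.62, Clic6 from -0.48 to 0.95, Sostdc1 from -3.07 to 1.19 and Prlr from 1.21 to 1.87. For DMSO against Control the median ranged from -0.41 to 0.34, Ttr from -1.17 to 1.09, Folr1 from -0.049 to 0.99, and Sostdc1 from -0.41 to 0.54. For ONX-0914 against DMSO the median ranged from -0.33 to 1.69, Ttr from -0.33 to 1.69, Kl from -3.44 to 0.26, Clic6 from 0.33 to 1.91, Sostdc1 from -3.26 to 0.99 and Prlr from 1.75 to 2.31. Otx2 did not pass the filter on low counts with all libraries. Without ONX-0914 replicate 2 the filter admitted it on replicate 1 alone, the only library left in that group. Replicate 1 had 46 counts of Otx2, against 2 to 6 in the Control and DMSO libraries. The calls of Otx2 without replicate 2 thus rest on the library that admitted it, and no conclusion is drawn from them. The low counts of Folr1, Kcne2, Kcnj13, Aqp1 and Otx2 limit what these libraries can show.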
